A study of Homo sapiens with 6 samples.

Results

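Matrix metalloproteinases (MMPs) and their tissue inhibitors (TIMPs) were read after knockdown of S100A10 in MDA-MB-231, a cell line long established from a human triple-negative breast cancer. The set was chosen by gene symbol and holds 9 genes: MMP1, MMP2, MMP3, MMP9, MMP13, MMP14, TIMP1, TIMP2 and TIMP3. A probe set with the symbol was found for 8 of them, 1 each, among 15669 genes with a symbol on 16965 probe sets; TIMP2 was not analysed here. Total RNA was hybridised to 6 arrays. All cells carried a lentiviral short hairpin RNA. All were kept in 10% serum under selection with puromycin at 2.5 µg/ml, so the controls had a hairpin and the drug as well. The control group was named shNCT, and the groups shS100A10_1 and shS100A10_5 each carried 1 of 2 hairpins against S100A10, with 2 arrays in each group. Whether the 2 arrays of a group stem from different cultures is not in the labels. The p-values below therefore reflect the spread of these arrays alone, possibly a technical one, and n = 2 limits the precision.

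MMPs are zinc-dependent proteases that cut collagens, laminins, fibronectin and other proteins outside the cell. Most are secreted as inactive proenzymes and gain activity when the propeptide is cut away, by plasmin among others, while TIMPs bind the active site and block it. S100A10, also called p11, pairs with annexin A2 at the cell surface and binds plasminogen, the precursor of plasmin. Many MMP genes are induced through AP-1, the factor made of FOS and JUN proteins. It binds the DNA element TGANTCA, in its usual form with C or G as N. The arrays measure RNA, not the activation or inhibition of the proteins.

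The pattern TGANTCA, called the element below, was searched with any base as N, so a match need not have the usual form. Both strands of a 300-base window around each start site were read, 250 bases before it and 50 after, in RefSeq's GRCh38.p14 table. Of the 9 genes, 3 had a window there: MMP14, TIMP1 and TIMP3. The 250 bases before their start sites are shown because these are the members whose levels are described below and whose windows were at hand. None of the 3 windows held TGANTCA, which 7.71% of all 35116 windows held. For MMP14 the stretch is chr14:22836335-22836584, plus strand, for TIMP1 chrX:47582186-47582435, plus strand, and for TIMP3 chr22:32801455-32801704, plus strand.
MMP14: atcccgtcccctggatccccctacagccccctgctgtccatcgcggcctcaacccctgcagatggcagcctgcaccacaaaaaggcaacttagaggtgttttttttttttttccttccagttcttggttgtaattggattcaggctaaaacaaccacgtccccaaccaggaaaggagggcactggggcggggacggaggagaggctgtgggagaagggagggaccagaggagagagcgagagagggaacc
TIMP1: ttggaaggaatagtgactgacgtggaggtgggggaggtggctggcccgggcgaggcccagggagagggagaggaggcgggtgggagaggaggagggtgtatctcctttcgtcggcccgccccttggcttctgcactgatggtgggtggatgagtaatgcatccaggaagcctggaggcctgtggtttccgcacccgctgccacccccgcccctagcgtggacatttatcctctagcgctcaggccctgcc
TIMP3: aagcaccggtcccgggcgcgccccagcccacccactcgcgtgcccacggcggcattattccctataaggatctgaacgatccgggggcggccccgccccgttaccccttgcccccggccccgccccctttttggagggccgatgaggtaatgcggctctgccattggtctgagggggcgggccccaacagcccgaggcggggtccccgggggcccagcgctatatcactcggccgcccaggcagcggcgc
The share of G and C in these stretches was 56.8% for MMP14, 64.8% for TIMP1 and 72.4% for TIMP3. To show the element as it occurs in this gene family, 40 bases are given from MMP10 and MMP7, which lie in the same gene cluster as MMP1, MMP3 and MMP13 on chromosome 11. The element, in capitals, starts 67 bases before the start site in both. Its middle base, the N of TGANTCA, was left free in the search and is A in MMP10 and G in MMP7. The MMP7 match thus has the usual form of the AP-1 site and the MMP10 match does not. How many windows held the element with C or G at that base was not counted. For MMP10 the stretch is chr11:102780672-102780711, minus strand, and for MMP7 chr11:102530791-102530830, minus strand.
MMP10: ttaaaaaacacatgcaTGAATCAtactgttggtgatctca
MMP7: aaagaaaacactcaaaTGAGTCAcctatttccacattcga
Of 12 windows of the other MMPs and TIMP4 in the table, 3 held the element, those of MMP7, MMP10 and MMP20. A match, or the lack of one, is a description of the letters and shows neither binding nor its absence. Sites that miss the pattern by a letter, such as tgagtaa in the TIMP1 stretch, were not counted.

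S100A10 itself was low in both knockdown groups. The control arrays read intensities of 88860 and 92938, those of shS100A10_1 read 1969 and 1545, and those of shS100A10_5 read 13565 and 9460, with no overlap between groups. It fell 52.1-fold with shS100A10_1 (limma, adjusted p = 1.71e-06) and 8.02-fold with shS100A10_5 (adjusted p = 0.000442). On the first principal component of all log2 values, with 45.2% of the variance, shS100A10_5 replicate 2 lay at 41.1 and replicate 1 at 18.7, while the other arrays lay between -18.2 and -10.0. All 8 markers of the cell line, among them the mesenchymal genes VIM and AXL, lay above the upper quartile of all probe sets. Of these, LGALS1 fell with shS100A10_5. Of 10 luminal breast markers 7 were measured. KRT8, KRT18 and KRT19 lay above that quartile too, with means over the arrays of 15.42, 13.75 and 13.35. EPCAM had a mean of 10.32, GATA3 of 6.89, FOXA1 of 4.73 and CDH1 of 3.59. Of 5 endothelial markers 3 were measured, PECAM1, VWF and KDR, with means of 4.06, 5.93 and 6.78. None of either list passed the threshold in any comparison. Of 9 fibroblast markers 7 were measured, all with a mean over the arrays below the median of all probe sets (7.88 on the log2 scale). DCN, LUM, FAP and THY1 ranged from 2.88 to 6.01 on single arrays, PDGFRA from 4.64 to 5.52 and PDGFRB from 5.6 to 6.57. ACTA2 had a mean of 7.51 with shNCT, 7.94 with shS100A10_1 and 7.42 with shS100A10_5, and reached 8.07 on 1 shS100A10_1 array. The summed intensity of the 7 was log2 8.41 to 8.44 with shNCT, 8.68 to 8.82 with shS100A10_1 and 8.64 to 8.68 with shS100A10_5. None of the 7 passed the threshold in any comparison, 3 had a mean below the lower quartile, and their part in the results was not tested. Of 8 leukocyte markers, LYZ rose with both hairpins and 0 others passed against shNCT. The 8 summed to log2 12.69 to 12.74 with shNCT, 12.92 to 13 with shS100A10_1 and 12.2 to 12.6 with shS100A10_5. CD68 alone, above the upper quartile, had means of 12.64, 12.88 and 12.29 in these groups, so the sum followed CD68. The other leukocyte markers had means over the arrays from 3.83 to 6.62. Their part was not tested either.

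At the level of the whole set, 1 of 8 genes differed in 1 of the 3 comparisons. MMP1, the interstitial collagenase, was 2.02-fold lower with shS100A10_5 than with shS100A10_1. Against the control hairpin, 0 of 8 genes passed the threshold with either hairpin (limma, adjusted p under 0.05 over all probe sets). At an unadjusted p under 0.05, 1 did in each of these comparisons, MMP1 with shS100A10_1 and TIMP3 with shS100A10_5. Between the hairpins 2 did, MMP1 and MMP13. The share called over all probe sets was 0.189% for shS100A10_1, 3.18% for shS100A10_5 and 2.91% for the difference between the hairpins; at an unadjusted p under 0.05 it was 8.44%, 21% and 19.9%. By direction, 0.1% were called higher and 0.0884% lower with shS100A10_1, and 1.43% higher and 1.75% lower with shS100A10_5. Between the hairpins, 1.43% were called higher and 1.48% lower with shS100A10_5. The median change of the 8 genes on the log2 scale was 0.05 with shS100A10_1, 0.03 with shS100A10_5 and 0.09 between the hairpins, against 0.01, 0.02 and 0.02 over all probe sets. Hairpin and control arrays did not overlap for 5 of 8 genes with shS100A10_1 (42.4% of all probe sets) and for 4 of 8 with shS100A10_5 (50.5%), and the arrays of the 2 hairpins did not overlap for 4 of 8 (49%). Both hairpin comparisons share the control arrays.

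**Figure D1:**
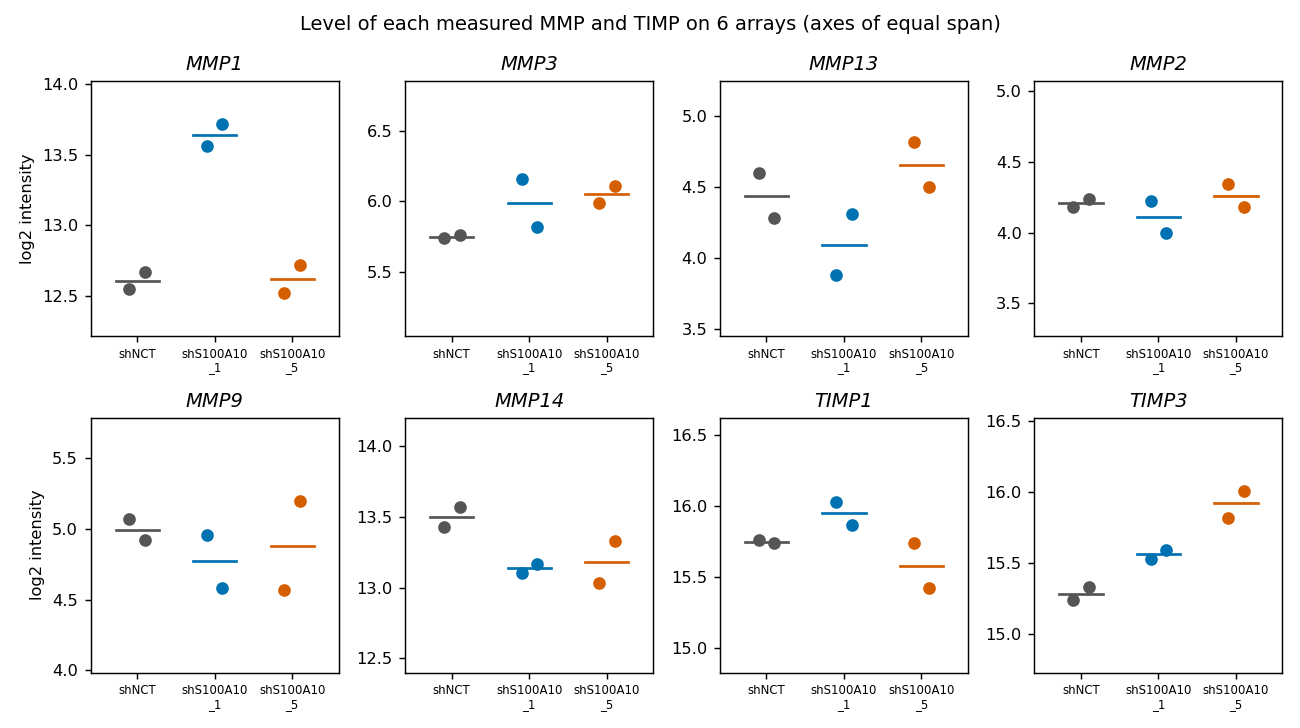
Log2 intensity of the 8 measured genes, with a point for each array, a bar for the mean of each group of 2 arrays, and vertical axes of equal span. MMP1 lies between 13.56 and 13.72 on the shS100A10_1 arrays and between 12.52 and 12.72 on the other arrays.

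MMP1 and MMP13 are secreted collagenases, which cut fibrillar collagen. MMP1 lay above the upper quartile of all probe sets (10.73 on the log2 scale). Its intensity was 5996 and 6506 with shNCT, 12039 and 13503 with shS100A10_1, and 5884 and 6749 with shS100A10_5. Both shS100A10_1 arrays lay above all others, while the shS100A10_5 and control arrays overlapped. On the log2 scale the level was 12.61 ± 0.083 (SD, n = 2) with shNCT, 13.64 ± 0.12 with shS100A10_1 and 12.62 ± 0.14 with shS100A10_5. The difference of shS100A10_5 from shS100A10_1 was -1.02 (SE 0.17, 95% interval -1.41 to -0.63; limma, adjusted p = 0.0179) and passed the threshold. The change with shS100A10_1 against shNCT was 1.03 (SE 0.17, interval 0.64 to 1.42), 2.04-fold, with an unadjusted p of 0.000144 that did not pass over all probe sets (limma, adjusted p = 0.0647). With shS100A10_5 the change was 0.01 (interval -0.38 to 0.40; limma, adjusted p = 0.978). MMP1 was thus highest with shS100A10_1, and the other two groups did not differ beyond their spread.

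The MMP1 results depended on the fit and on single arrays. The difference between the hairpins lost its call without shS100A10_1 replicate 1 (-1.10), without shS100A10_1 replicate 2 (-0.93) and without shS100A10_5 replicate 2 (-1.12). Of the hairpin arrays, only shS100A10_5 replicate 1 could be left out with the call kept (-0.92). The shNCT arrays do not enter this difference, and its size stayed at -1.02 without either of them. Without shS100A10_5 replicate 2, whose score on the first component was the highest, the number of probe sets called between the hairpins was 7 in place of 494. Array weights were the same for both arrays of a group, 1.27 with shNCT, 1.25 with shS100A10_1 and 0.63 with shS100A10_5. They thus weighed groups and not single arrays. The change with shS100A10_1 passed with dim probe sets left out (limma, adjusted p = 0.0329), with a prior variance that follows intensity (0.00165) and with array weights (0.0225). It did not pass when any 1 array was left out (adjusted p from 0.105 to 0.384), although its size stayed between 0.95 and 1.11. With an array left out, the group left with 1 array is assumed to vary like the others.

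**Figure D2:**
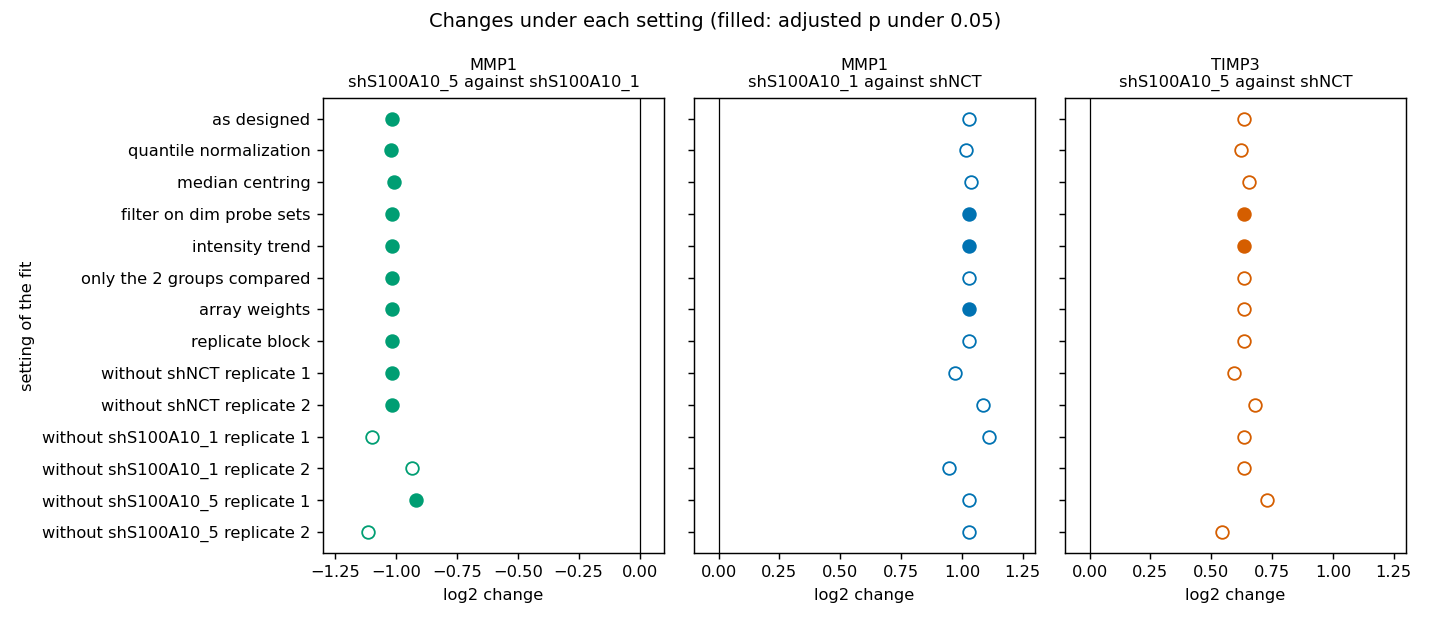
Log2 change of MMP1 between the hairpins, of MMP1 with shS100A10_1 and of TIMP3 with shS100A10_5, one row for each setting of the fit, filled where the adjusted p is under 0.05. A size could move only with quantile normalization, median centring or a left-out array of the groups compared. It ran from 0.95 to 1.11 for MMP1 with shS100A10_1, while the calls changed between settings.

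MMP13 had low signal. Its intensity was 24.3 and 19.5 with shNCT, 14.7 and 19.8 with shS100A10_1, and 28.2 and 22.7 with shS100A10_5, with a mean log2 level of 4.40, below the lower quartile of all probe sets (4.98). The shS100A10_5 arrays lay above the shS100A10_1 arrays, and the control arrays overlapped both groups. The log2 difference between the hairpins was 0.57 (SE 0.21, interval 0.09 to 1.04; limma, adjusted p = 0.18), opposite in sign to that of MMP1. The changes against shNCT were -0.35 with shS100A10_1 and 0.22 with shS100A10_5 (limma, adjusted p = 0.726 and 0.609). The table holds no detection call, so whether this signal stood above background could not be read.

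MMP3, or stromelysin 1, cuts proteoglycans, laminin and fibronectin and can activate proMMP1. Its intensity was 53.6 and 54.2 with shNCT, 71.7 and 56.3 with shS100A10_1, and 63.5 and 69 with shS100A10_5. All 4 knockdown arrays lay above both controls, and the 2 knockdown groups overlapped. The log2 changes were 0.24 with shS100A10_1 (interval -0.17 to 0.64; limma, adjusted p = 0.802) and 0.30 with shS100A10_5 (interval -0.11 to 0.70; adjusted p = 0.395), and neither passed.

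The gelatinases MMP2 and MMP9, which cut denatured collagen and collagen IV of basement membranes, both had a mean over the 6 arrays below the lower quartile of 4.98, 4.19 for MMP2 and 4.88 for MMP9. Single MMP9 arrays reached 5.07 with shNCT and 5.20 with shS100A10_5, above that quartile. MMP2 intensity was 18.1 and 18.9 with shNCT, 18.6 and 16 with shS100A10_1, and 20.3 and 18.1 with shS100A10_5. Its groups overlapped in every pair, and the log2 changes were -0.10 (interval -0.49 to 0.29) and 0.05 (interval -0.34 to 0.44). MMP9 intensity was 33.5 and 30.2 with shNCT, 31 and 23.9 with shS100A10_1, and 23.7 and 36.8 with shS100A10_5. Its groups overlapped as well, and the 2 shS100A10_5 arrays, the lowest and the highest of all 6, differed by 0.64 on the log2 scale. The changes of MMP9 were -0.22 (SE 0.23, interval -0.74 to 0.30; limma, adjusted p = 0.873) and -0.11 (interval -0.63 to 0.41; adjusted p = 0.839). At this level neither gelatinase showed a detectable difference, and the intervals for MMP9 leave room for changes of 0.74 downward.

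MMP14, a membrane-anchored MMP that cuts pericellular collagen and activates proMMP2, also had signal above the upper quartile. Its intensity was 11071 and 12123 with shNCT, 8762 and 9241 with shS100A10_1, and 8391 and 10298 with shS100A10_5. All 4 knockdown arrays lay below both controls, and the knockdown groups overlapped each other. The log2 changes were -0.36 with shS100A10_1 (SE 0.18, interval -0.76 to 0.03; limma, adjusted p = 0.634) and -0.32 with shS100A10_5 (interval -0.72 to 0.08; adjusted p = 0.345). Neither passed, and the unadjusted p was 0.0686 and 0.106. The hairpins differed from each other by 0.05 (interval -0.35 to 0.44).

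Of the inhibitors, TIMP3, which binds to the matrix and inhibits MMPs and several ADAM proteases, ordered the 3 groups without overlap. Its intensity was 38611 and 41065 with shNCT, 47237 and 49333 with shS100A10_1, and 58013 and 66007 with shS100A10_5. The controls were lowest and the shS100A10_5 arrays highest. The change with shS100A10_5 was 0.64 on the log2 scale (SE 0.17, interval 0.26 to 1.01), 1.55-fold, with an unadjusted p of 0.00373 that did not pass over all probe sets (limma, adjusted p = 0.0713). It passed with dim probe sets left out (adjusted p = 0.0433) and with an intensity trend (0.00262), and it was 0.54 (adjusted p = 0.226) without shS100A10_5 replicate 2. Over all alternatives its adjusted p ran from 0.00262 to 0.274. The change with shS100A10_1 was 0.28 (interval -0.10 to 0.66; limma, adjusted p = 0.728), and the hairpins differed by 0.36 (interval -0.02 to 0.74; adjusted p = 0.276). Neighbouring groups in this order thus did not differ past the threshold.

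TIMP1, a secreted inhibitor of most soluble MMPs, had intensities of 55678 and 54881 with shNCT, 66752 and 59952 with shS100A10_1, and 54877 and 43766 with shS100A10_5. The shS100A10_1 arrays lay above the controls, and the higher shS100A10_5 array lay just below the lower control. The log2 changes were 0.19 (interval -0.21 to 0.60) and -0.17 (interval -0.58 to 0.23), and the hairpins differed by -0.37 (SE 0.18, interval -0.77 to 0.04; limma, adjusted p = 0.295). TIMP1 lies within the span of the neuronal gene SYN1 and TIMP3 within that of SYN3. SYN1 had log2 levels of 4.26 to 5.01 and SYN3 of 3.44 to 3.99, both with means below the lower quartile of 4.98, and neither passed in any comparison.

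**Figure D3:**
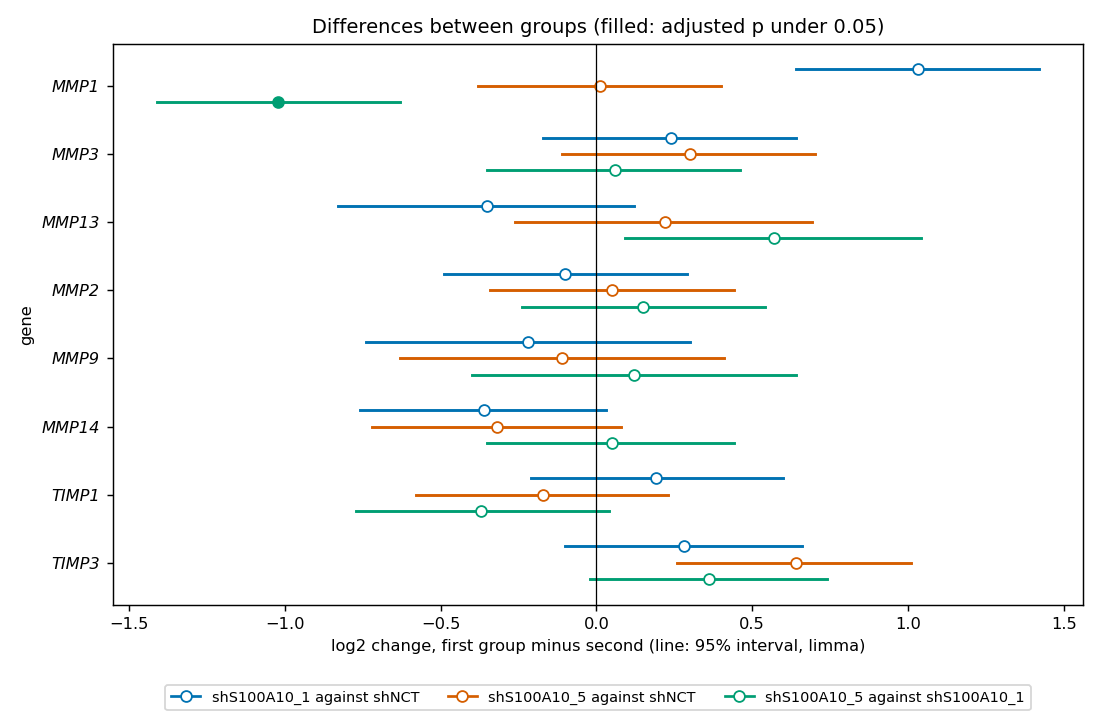
Log2 change of each gene in the 3 comparisons, first group minus second, with limma's 95% interval as a line and filled points where the adjusted p is under 0.05. The 1 filled point is MMP1 between the hairpins, at -1.02.

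MMP1, MMP3 and MMP13 belong to a cluster of 9 MMP genes on chromosome 11, in the order MMP7, MMP20, MMP27, MMP8, MMP10, MMP1, MMP3, MMP12, MMP13 in the RefSeq table. Of these 9, 7 had a probe set. Over all probe sets 0.189% were called with shS100A10_1, 3.18% with shS100A10_5 and 2.91% between the hairpins. Of the 7, MMP1 was the 1 called in any comparison, between the hairpins. Its neighbours MMP10, or stromelysin 2, and MMP3 had changes of 0.30 (SE 0.22) and 0.24 (SE 0.18) with shS100A10_1, against 1.03 for MMP1. With shS100A10_5, MMP10 had a change of 0.63 (SE 0.22; limma, adjusted p = 0.144), MMP1 of 0.01 and MMP3 of 0.30. MMP12, the macrophage elastase, had changes of -0.45 and -0.21. The genes at the ends of the cluster, TMEM123 and DCUN1D5, had changes between -0.04 and 0.22, and BIRC2, next to TMEM123, had changes of -0.80 and -0.32 (SE 0.19). Adjusted p-values of these neighbours were not read, so no call is given for them. The MMP genes here resemble each other in sequence. With shS100A10_1, where MMP1 read intensities of 12039 and 13503, MMP3 read 71.7 and 56.3. On the same arrays MMP10 read 24.6 and 19.6, and MMP13 read 14.7 and 19.8. How far the probes read each other's RNA was not tested.

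**Figure D4:**
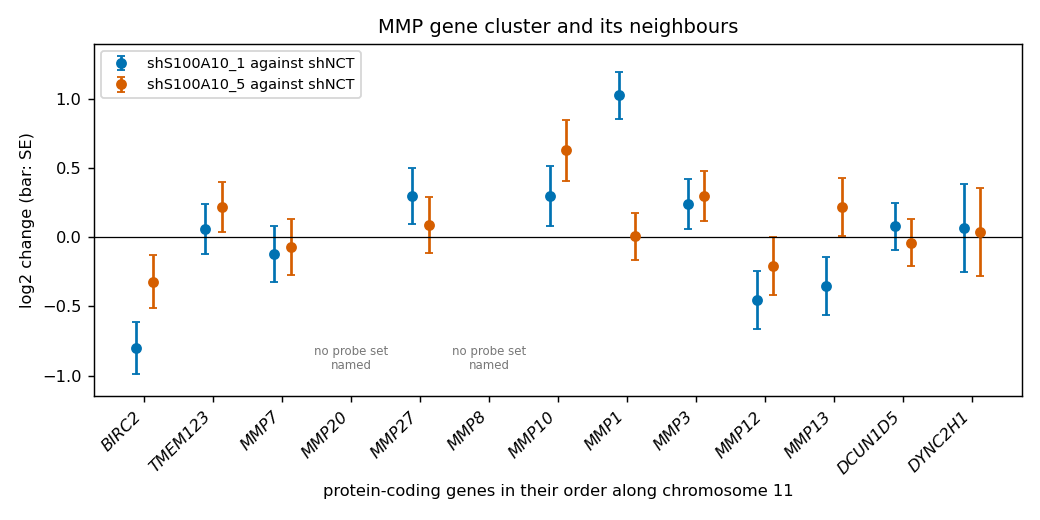
Log2 change with each hairpin against shNCT (points, with SE as bars) for the MMP genes of the chromosome 11 cluster and 2 protein-coding neighbours on each side, in genomic order and not to scale. MMP1 is at 1.03 with shS100A10_1 and 0.01 with shS100A10_5, while the other MMPs of the cluster lie between -0.45 and 0.63.

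The rest of the family was low on these arrays. Of 19 other genes (18 MMPs and TIMP4), 12 had a probe set, 8 of them with a mean below the lower quartile and 0 with one above the upper quartile. MMP28, or epilysin, was the 1 past the threshold: its intensity was 9.55 and 9.51 with shNCT, 11.6 and 11.7 with shS100A10_1, and 16.8 and 15.1 with shS100A10_5. It rose by 0.74 with shS100A10_5 (SE 0.17; limma, adjusted p = 0.0449), at log2 levels of 3.25 to 4.07, below the lower quartile. The call was lost with each array left out in turn, where the change ran from 0.66 to 0.82. With all arrays kept it was lost with quantile normalization (limma, adjusted p = 0.0539) and with array weights (0.0699). In all, MMP28 passed in 3 of 12 alternatives. MMP19 had changes of -0.25 and 0.25 and differed by 0.50 between the hairpins (limma, adjusted p = 0.174). In all, 0 of 12 passed with shS100A10_1, 1 rose with shS100A10_5 and 0 differed between the hairpins, with medians of -0.09, 0.13 and 0.08. At an unadjusted p under 0.05 the counts were 0, 2 and 2 of 12, against 8.44%, 21% and 19.9% of all probe sets. The shares called over all probe sets were 0.189%, 3.18% and 2.91%.

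No related metalloprotease passed in the 3 comparisons as fitted, while 2 ADAM genes did under some alternatives. Of the ADAM proteases, which shed membrane proteins, 10 were measured and 0 passed; ADAM28 had a change of 1.00 with shS100A10_5 (SE 0.25; limma, adjusted p = 0.0575), and ADAM15 differed by -0.67 between the hairpins (adjusted p = 0.0816). ADAM28, with means of 3.96 with shNCT and 4.96 with shS100A10_5, both below the lower quartile, passed in 5 of 12 alternatives (limma, adjusted p from 0.0273 to 0.276 over the 12). ADAM15 passed in 2 of 13 (0.0225 to 0.302). Their medians were 0.11, 0.02 and -0.01 for shS100A10_1, shS100A10_5 and the difference. An unadjusted p under 0.05 was seen for 1, 5 and 5 of 10, against 8.44%, 21% and 19.9% of all probe sets. The shares called over all probe sets were 0.189%, 3.18% and 2.91%. Of the ADAMTS proteases, 14 were measured and 0 passed, with medians of -0.21, -0.16 and -0.01 and 2, 1 and 1 at an unadjusted p under 0.05. ADAMTS4 and ADAMTS6, which have their smallest p against the control, had changes of -0.51 and -0.62 with shS100A10_1 and of -0.54 and -0.49 with shS100A10_5 (limma, adjusted p from 0.133 to 0.557).

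Among 20 measured activators, inhibitors and surface partners of MMPs, 0 passed with shS100A10_1, 1 rose and 1 fell with shS100A10_5, and 1 differed between the hairpins. At an unadjusted p under 0.05 the counts were 8, 8 and 7 of 20, against 8.44%, 21% and 19.9% of all probe sets. The shares called over all probe sets were 0.189%, 3.18% and 2.91%. The medians of the list were 0.07, 0.05 and -0.12. PLAU, the urokinase that makes plasmin, had intensities of 12531 and 12739 with shNCT, 19559 and 18411 with shS100A10_1, and 9132 and 8337 with shS100A10_5. Between the hairpins it differed by -1.12 (SE 0.17, log2; adjusted p from limma 0.0113), the same direction as MMP1, and the 3 groups did not overlap. PLAT, the tissue plasminogen activator, rose with shS100A10_5 by 0.76 (adjusted p = 0.043) and had a change of 0.99 with shS100A10_1 (adjusted p = 0.0647). The call of PLAT was lost with array weights (limma, adjusted p = 0.0696). SDC1, syndecan 1, a surface proteoglycan, fell by 1.29 with shS100A10_5 (limma, adjusted p = 0.0107). With shS100A10_1 SDC1 had a change of -0.88 (adjusted p = 0.143), with both arrays below the controls. The hairpins differed by -0.41 for SDC1 (limma, adjusted p = 0.267). TFPI2, a matrix inhibitor of plasmin, had changes of 1.03 and 0.26 (adjusted p = 0.11 and 0.525), and THBS1, which binds MMPs, differed by 0.61 between the hairpins (limma, adjusted p = 0.0828). Without shS100A10_5 replicate 2 the calls of PLAU (adjusted p = 0.094), PLAT (0.186) and SDC1 (0.117) were lost. Without either shNCT array those of PLAT (0.151 and 0.256) and SDC1 (0.0631 and 0.1) were lost too, as were that of PLAT without either shS100A10_1 array (0.0576) and that of PLAU without shS100A10_1 replicate 1 (0.0751).

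Of 20 transcription factors known to act on MMP promoters, all measured, 0 passed with shS100A10_1, while 3 rose and 1 fell with shS100A10_5. The medians were -0.09, 0.03 and 0.13. An unadjusted p under 0.05 was seen for 4, 6 and 9 of 20, against 8.44%, 21% and 19.9% of all probe sets. The shares called over all probe sets were 0.189%, 3.18% and 2.91%. The AP-1 gene JUNB rose by 1.36 (limma, adjusted p = 0.00818) and FOSB by 0.82 (adjusted p = 0.0419), and JUN fell by 0.79 (change -0.79; adjusted p = 0.0408). SNAI1, a repressor of E-cadherin, rose by 1.75 (adjusted p = 0.00563). With shS100A10_1 the changes were 0.47 for JUNB, 0.07 for FOSB, -0.35 for JUN and -0.56 for SNAI1. None of these passed (limma, adjusted p from 0.428 to 0.961). With array weights the calls of FOSB (limma, adjusted p = 0.072) and JUN (0.0648) with shS100A10_5 were lost. Between the hairpins JUNB (0.89; limma, adjusted p = 0.0244) and SNAI1 (2.31; adjusted p = 0.00102) were higher with shS100A10_5, where MMP1 was lower. FOS differed by 1.08 (adjusted p = 0.0518), FOSB by 0.75 (0.0558) and JUN by -0.43 (0.197). RUNX2 had a change of -0.89 with shS100A10_1 (limma, adjusted p = 0.108). The 4 calls with shS100A10_5 against shNCT were lost without shS100A10_5 replicate 2 (adjusted p from 0.0993 to 0.189). Without shNCT replicate 2 they were lost as well (0.0537 to 0.214), and without shNCT replicate 1 so were all but SNAI1 (0.0526 to 0.205). FOSB also lost its call without shS100A10_5 replicate 1 (0.059), and JUN without either shS100A10_1 array (0.0538). JUNB between the hairpins lost its call without each of the hairpin arrays in turn (log2 difference from 0.81 to 0.97). The shNCT arrays do not enter this difference. SNAI1 kept its call between the hairpins throughout (2.12 to 2.51).

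Among 17 measured matrix substrates, LAMB1, a laminin chain of basement membranes, fell by 0.86 with shS100A10_5 (limma, adjusted p = 0.0385). The list had 0 others past the threshold in any comparison. With shS100A10_1 LAMB1 had a change of -0.47 (adjusted p = 0.51), and the hairpins differed by -0.39 (limma, adjusted p = 0.271). The call of LAMB1 was lost with array weights (adjusted p = 0.066). COL6A1 differed by -0.82 between the hairpins (adjusted p = 0.052), and TNC, or tenascin C, had changes of -0.67 and -0.57 (limma, adjusted p = 0.286 and 0.104). LAMB1 lost its call without shS100A10_5 replicate 2 (adjusted p = 0.15), without replicate 1 (0.069) and without either shNCT array (0.108 and 0.259). The medians of the list were -0.16, -0.07 and 0.10. An unadjusted p under 0.05 was seen for 7, 3 and 6 of 17, against 8.44%, 21% and 19.9% of all probe sets. The shares called over all probe sets were 0.189%, 3.18% and 2.91%.

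The genes whose pattern over the 6 arrays was most like that of MMP1 were looked for among 304 probe sets with a symbol, a mean level at or above the median and group means spanning at least 1 on the log2 scale. RIGI, a sensor of viral RNA, had a Pearson correlation of 0.964 with MMP1, PTX3, a secreted pentraxin, 0.963, and PRR16 0.963, over the 6 arrays in 3 groups. PTX3 had log2 levels of 12.92 and 12.64 with shNCT, 14.09 and 14.22 with shS100A10_1, and 12.63 and 12.55 with shS100A10_5. Its group means gave a change of 1.38 with shS100A10_1, of -0.19 with shS100A10_5 and a difference of -1.57 between the hairpins. RIGI had a change of 1.07 with shS100A10_1 and of 0.25 with shS100A10_5, and PRR16 of 0.89 and -0.17. These 3 genes were chosen on these arrays for a pattern like that of MMP1 and for group means that lie apart, so their differences are a description and no test of them is given. The correlations describe the same 6 arrays.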

How the data were processed

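Biotin-labelled cDNA from total RNA was hybridised to whole-transcript arrays, per the labels' protocols. The deposited table holds 1 normalized intensity per probe set and array, made by the authors with Transcriptome Analysis Console, per the submitters' processing notes. Its version, background correction and normalization were not named in these sources. In log2 form each deposited value ended at 5 decimals (largest deviation 7.13e-10), so values had been on a log2 scale. No detection calls or scan dates come with it, and no pair of arrays was identical (0 pairs). Symbols came from the platform annotation (15674 probe sets with 1, 0 with several, 1291 with none), and all 15674 gene identifiers were found in RefSeq's GRCh38.p14 table.

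Log2 intensities were used as they are, without another normalization. The model, in limma 3.58.1 (R 4.3.3), had 1 mean for each group over the 6 arrays (3 residual and 7.16 prior degrees of freedom), with two-sided tests and Benjamini-Hochberg adjustment over all 16965 probe sets at 0.05. The fit was tested on simulated data whose spread was drawn from the fit itself, alike in all groups. Such a test checks the code and not the assumptions of the model. On the real arrays the SD of the log2 difference within a pair was 0.36 with shS100A10_5. It was 0.29 with shNCT and with shS100A10_1. Named genes are the members, S100A10, list genes past the threshold in any comparison, the 2 others of each list with the smallest p, and the 3 genes most like MMP1; TMEM123, DCUN1D5, BIRC2, SYN1, SYN3, MMP7, MMP12 and MMP20 are named for position or sequence. The members and lists were chosen with earlier results of these data known. Alternatives were quantile normalization, median centring, a filter on probe sets below the lower quartile, an intensity trend, only the groups compared, array weights, a block for the replicate number, and each array left out; another probe set per gene could not be tried, since each member had 1.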

Additional observations from a re-analysis of the deposited data

Results flagged for a closer look

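The effects of the 2 hairpins against the same controls differed by limma's test of the difference for 5 genes named above, all given as shS100A10_5 minus shS100A10_1 on the log2 scale. MMP1 differed by -1.02. PLAU differed by -1.12, with changes of 0.59 and -0.53 against shNCT for shS100A10_1 and shS100A10_5. JUNB differed by 0.89 and SNAI1 by 2.31. S100A10 itself differed by 2.70, with 6.49-fold more signal left with shS100A10_5. With shS100A10_5 replicate 2 left out, MMP1, PLAU and JUNB no longer passed (limma, adjusted p from 0.094 to 0.111), while SNAI1 and S100A10 passed with each of the 6 arrays left out in turn. PTX3 and PRR16 differed by -1.57 and -1.06, but they were chosen on the same arrays for a pattern like that of MMP1, so these values restate that choice and are no separate result.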

How the results depend on the processing

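Of 303 values of the 8 members under the alternatives, 284 kept their direction and side of the threshold, 5 passed it only there, 3 lost it and 11 changed sign, all 11 of changes that did not pass. Of 399 values of the other named genes, 316 kept both, 25 passed only under the alternative, 58 lost the threshold and 0 changed sign. The dim filter, the trend, array weights, the replicate block and the fit of only the groups compared leave the size of a change as it was. So does leaving out an array of the group not compared. A kept direction was fixed in advance there, and the other named genes were in part picked for a small p. The counts above are thus no measure of stability. Left-out arrays moved these across 0: MMP1 with shS100A10_5 from -0.086 to 0.11 (and -0.002 with quantile normalization), MMP2 from -0.21 to 0.01 with shS100A10_1 and from -0.031 to 0.14 with shS100A10_5, MMP9 with shS100A10_5 from -0.42 to 0.21, and between the hairpins MMP3 from -0.12 to 0.23, MMP9 from -0.20 to 0.44 and MMP14 from -0.10 to 0.20. The number of members past the threshold, 0, 0 and 1 for shS100A10_1, shS100A10_5 and the difference, became 1 for shS100A10_1 with the dim filter, the trend and array weights (MMP1), and 1 for shS100A10_5 with the dim filter and the trend (TIMP3); for the difference it ran from 0 to 1 with an array left out. The 32, 539 and 494 probe sets called in all became 60, 952 and 791 with the dim filter and 98, 1454 and 1144 with the trend. They became 89, 242 and 287 with array weights, and 16 and 291 for shS100A10_1 and the difference with only the groups compared. Over left-out arrays they ran from 8 to 16, from 3 to 994 and from 7 to 656. The cause was not tested. With the replicate block the counts were 33, 625 and 561, with 0, 0 and 1 members (MMP1 between the hairpins, limma adjusted p = 0.0174). Nothing in the labels pairs same-numbered arrays, and their deviations correlated between groups by -0.0223, -0.035 and 0.188 across probe sets. The dim filter took out MMP2, MMP9 and MMP13, whose low signal limits what can be seen.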
